A study of Homo sapiens with 9 samples.

Results

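RNA-seq counts of THP-1 cells given LPS together with ABS (LPS_ABS) were compared with those of THP-1 cells given LPS alone (LPS), with 3 libraries in each group and so 6 of the 9 libraries of the series. Libraries were assigned by their treatment label. THP-1 is a human monocytic leukaemia line, labelled wild type, that grows in suspension. All 9 libraries, the controls included, came from cells first treated with PMA, a phorbol ester that makes the line adhere and take on macrophage features. The 3 control libraries, from cells then given PBS, entered the model and are quoted below as levels only. LPS, lipopolysaccharide, is a cell wall component of Gram-negative bacteria. What ABS stands for is not written in the labels, though apoptotic bodies are named in the title of the series. Neither doses nor times were given in the sources used here, and no library had ABS without LPS. Since no label says that the libraries of a group came from separate cultures, p-values measure only the spread between these libraries, which may be technical.

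As background, apoptotic bodies are membrane-bound fragments shed by dying cells, and macrophages bind them with receptors such as the TAM kinases TYRO3, AXL and MERTK, bridged by the ligands GAS6 and PROS1. LPS signals through a Toll-like receptor complex along a pair of arms. One arm drives NF-kB and MAP kinase targets such as the cytokine genes, and the other induces interferon beta, which acts back on the cell through its receptor and switches on a large set of antiviral genes. Amino acid shortage and other stresses act through the transcription factor ATF4, which induces amino acid synthesis, transport and tRNA charging.

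Total counts per library ranged from 39168526 to 41679412 with LPS and from 38506162 to 38893597 with LPS_ABS, and 12970 of the 16222 deposited genes had enough counts to be tested. In the LPS_ABS libraries GC-rich transcripts had relatively more counts. The slope of log2 level, taken relative to the mean over libraries, per 10 points of transcript GC content was 0.223, 0.323 and 0.367 in LPS_ABS 1, 2 and 3 and -0.304, -0.024 and -0.119 in LPS 1, 2 and 3. The groups did not overlap (0.305 ± 0.074 against -0.149 ± 0.142, SD, n = 3 each; exact two-sided permutation p = 0.1, the smallest possible with 3 against 3), and after a correction per library the slopes lay between -0.011 and 0.016. LPS_ABS 3 differed from LPS_ABS 1 and 2 in its share of counts from cytoplasmic ribosomal protein genes, 7.45% against 8.69% to 10.7% in the other 8 libraries. Each result was therefore computed 3 times, without correction, with the GC correction, and without LPS_ABS 3. Genes counted as called had an adjusted p below 0.05 (edgeR quasi-likelihood test, Benjamini-Hochberg over the 12970 genes).

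The markers of other cells bear on the comparison as follows. Of 18 fibroblast and mesenchymal stromal cell markers, 15 were in the counts and 11 were tested, and their summed level was 639.2 to 695 CPM (counts scaled to library size after TMM) with LPS and 811 to 902 CPM with LPS_ABS. Most of it came from S100A4, ENG and COL6A1, which macrophages also express, and POSTN had 0 counts in all 6 libraries. COL1A1, a fibrillar collagen chain, was called higher in the 3 fits at very low levels, 0.023, 0.0956 and 0.103 CPM with LPS and 0.707, 0.323 and 0.479 CPM with LPS_ABS. With the GC correction described above and each of the 6 libraries left out, COL1A1 was called in 0 of 6 fits. The chondrocyte list was carried by COL9A2 almost alone, with COL2A1 at 0 in the 6 libraries, and its sum of 1105 to 1701 CPM with LPS overlapped that of 1657 to 2043 CPM with LPS_ABS. The sum of the T cell markers was at most 2.37 CPM in any of the 6 libraries. Epithelial markers summed to 20.15 to 22.76 CPM with LPS and 9.36 to 16.58 CPM with LPS_ABS. Among the 6 epithelial markers tested 0 were called in all 3 fits. Sums of B cell and of endothelial markers overlapped between the groups. The part that the fibroblast markers' source had in the differences below was not tested. Of 34 genes of monocyte and macrophage identity 34 were in the counts, and their summed level was 4416 to 5376 CPM with LPS and 5253 to 5627 CPM with LPS_ABS.

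Of the gene lists described below, the type I interferon response had 22 of 44 members lower with LPS_ABS in all 3 fits. IL1B was higher, as were 6 of 31 cytokine and chemokine genes, 5 of 39 ERK target genes, 5 of 25 glycolysis genes (1 was lower) and 9 of 45 DNA replication genes, where 2.64% of all genes were lower and 2.61% higher in all 3 fits. Without correction edgeR called 4621 of 12970 genes (35.6%), 2179 higher (16.8%) and 2442 lower (18.8%) in LPS_ABS. The share of higher genes among those called was 47.2% with TMM and 32.6% when libraries were scaled by total counts. After the GC correction edgeR called 1201 (9.26%), 653 higher (5.03%) and 548 lower (4.23%). Of the 4621 genes 771 (16.7%) were called in both fits, none in opposite directions. Without LPS_ABS 3 the uncorrected fit called 3839 genes (29.6%), 1715 higher (13.2%) and 2124 lower (16.4%). With both the GC correction and LPS_ABS 3 left out 728 genes (5.61%) were called, 409 higher (3.15%) and 319 lower (2.46%). In bulk RNA a lower level can come from fewer cells of a type or from less RNA per cell, and these cannot be told apart.

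Called with the same sign in all 3 fits were 681 genes (5.25%), 338 higher (2.61%) and 343 lower (2.64%), and these are the genes named below as having risen or fallen unless the text says otherwise. The LPS and LPS_ABS libraries did not overlap in 679 of the 681, where 5988 of all genes tested (46.2%) did not overlap, 2841 with LPS_ABS above (21.9%) and 3147 with it below (24.3%). The 681 were selected by their difference in these same libraries, so their lack of overlap was nearly fixed in advance and is no added support. After the GC correction 3643 of all genes (28.1%) did not overlap, 1758 with LPS_ABS above (13.6%) and 1885 below (14.5%). The median absolute log2 fold change of the 681 genes was 0.97 uncorrected and 0.71 corrected, and 67 rose and 66 fell at least 2-fold in both. Of the 681 genes 391 (57.4%) were also called with the GC correction and LPS_ABS 3 left out together. With one LPS library left out of all 3 fits, the last of which then also lacks LPS_ABS 3, the count of 681 became 224 without LPS 1, 413 without LPS 2 and 117 without LPS 3. Where counts of list members without an LPS library are given below, they were made in the same way.

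A smaller set, defined after the data were seen, was called in all 14 fits, that is also with each of the 6 libraries left out in turn, with and without the GC correction. It held 103 genes (0.794%), 52 higher (0.401%) and 51 lower (0.393%). Their GC content was close to that of all genes tested. The median was 47.9% for the higher and 47.8% for the lower genes of this set, against 49.2% over all genes, 58.4% for the genes called higher without correction and 40.6% for those called lower. With the genes split into 5 equal bins by GC content, the genes called in all 3 fits still followed GC, with 7 higher and 85 lower in the most GC-poor bin and 89 higher and 11 lower in the most GC-rich. In the GC-corrected fit the same bins had 148 higher and 85 lower, and 89 higher and 95 lower.

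**Figure D1:**
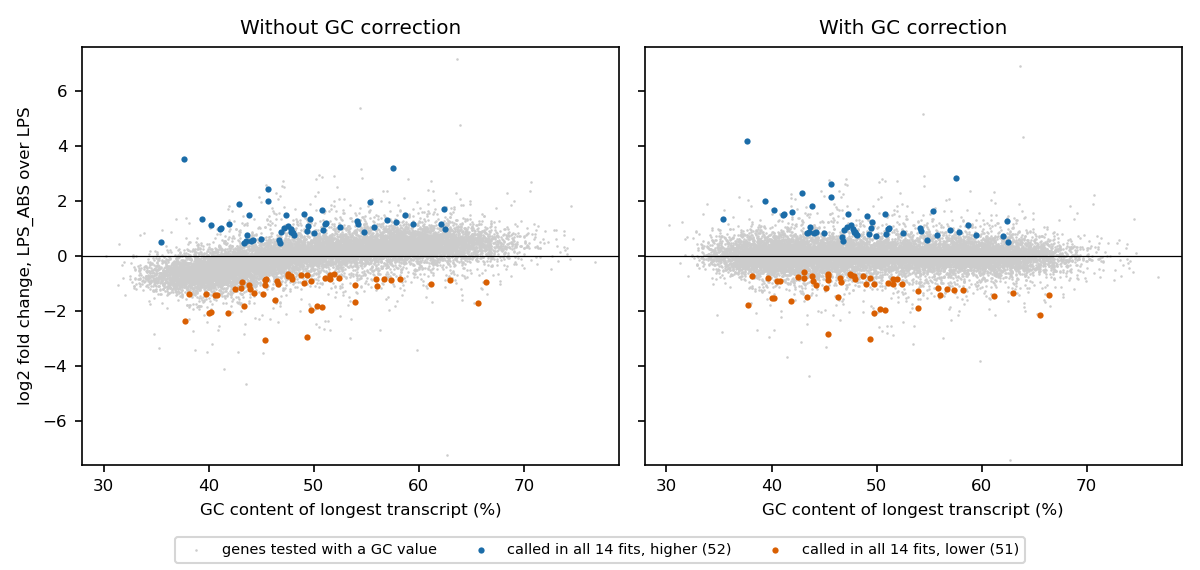
Log2 fold change of each gene, LPS_ABS over LPS, against the GC content of its longest transcript in percent, without (left) and with (right) the GC correction. Grey points are genes tested with a GC value, and coloured points are the genes called in all 14 fits, 52 higher (blue, of which 1 without a GC value is not drawn) and 51 lower (orange). The grey cloud rises with GC content on the left and lies flat on the right, and the coloured genes stand above and below it at low and high GC content.

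The GC correction ended calls of well measured genes at both ends of the GC range. FAR1, a fatty acyl-CoA reductase whose longest transcript has 31.3% GC, had 70.2, 49.95 and 62.6 CPM with LPS and 44.99, 25.4 and 16.4 CPM with LPS_ABS. Its log2 fold change moved from -1.07 (edgeR adjusted p = 0.0141) to -0.27 with the correction (adjusted p = 0.169). MRPL41, a protein of the mitochondrial ribosome at 71.9% GC, moved from 0.49 (edgeR adjusted p = 0.0234) to -0.02 (adjusted p = 0.951). Calls ended likewise for TFEC and GMFB, at 32.9% and 33.4% GC, and for ZNF865 and NR2F6, both at 71.1% GC. The zinc finger genes with a ZNF symbol showed this as a family. Of 435 tested, with a median GC content of 43.4%, 45 were called higher and 111 lower without correction, 8 and 17 with it, and 3 and 11 in all 3 fits.

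Type I interferon response genes were lower in LPS_ABS than in LPS. Of 45 on the list 44 were tested. Of these 0 were called higher in any of the 3 fits, 31 fell without correction, 34 with the GC correction and 24 without LPS_ABS 3, and 22 (50%) fell in all 3 fits, against 2.64% of all genes. All 44 had a negative log2 fold change after the correction, and the median was -0.84 uncorrected and -0.88 corrected, against 0.02 and 0.00 over all genes tested. LPS 3 was the highest of the 3 LPS libraries in 44 of the 44. The GC-corrected count of 34 was 10 without LPS_ABS 2, 23 without LPS_ABS 3 and 6 without LPS 3, and 25 to 41 without each of the others. Without LPS 3, 4 fell in all 3 fits, and without LPS 1 or LPS 2 the number was 18 or 24. The 5 that fell in all 14 fits were IFI44L, RSAD2, HERC6, MX1 and MX2.

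IFI44L (gene ID 10964), an interferon-induced gene, had 49.5, 55.2 and 86.7 CPM with LPS and 22.8, 6.65 and 7.66 CPM with LPS_ABS, beside 13.998, 11.2 and 7.11 CPM in controls. Every LPS_ABS library lay below every LPS library, and LPS_ABS 2 and 3 lay within or below the range of the controls. The log2 fold change was -2.37 ± 0.42 (SE; edgeR adjusted p = 0.00473) and -1.79 ± 0.33 with the GC correction (adjusted p = 0.00995). RSAD2 (gene ID 91543), the antiviral enzyme viperin, fell from 19.3, 22.4 and 26.5 CPM to 8.52, 4.31 and 3.40 CPM, with controls at 3.27 to 5.85 CPM (-2.07 ± 0.31, edgeR adjusted p = 0.00335). MX1, a dynamin-like antiviral GTPase, fell from 318, 360.2 and 514 CPM to 278, 203 and 195 CPM, with controls at 97.3 to 111 CPM (-0.82 ± 0.18, edgeR adjusted p = 0.00801). For MX1 all 3 LPS_ABS libraries stayed above the controls, and its relative MX2 fell by 0.92 on the log2 scale.

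The members that act as effectors were spread over many functions. IFIT1, which binds foreign RNA caps, fell from 65.3, 53.1 and 94.2 CPM to 32.9, 22.6 and 12.9 CPM, and IFIT2 and IFIT3 fell by 1.70 each on the log2 scale. DDX58 (RIG-I), a sensor of viral RNA, had 25.9, 21.4 and 32.5 CPM with LPS and 14.8, 6.92 and 5.40 CPM with LPS_ABS. PARP14, a mono-ADP-ribosyltransferase, fell by 1.49, and TRIM22, a ubiquitin ligase, by 1.36, both without correction. In the order LPS_ABS 1, 2 and 3, the median log2 difference of the 44 members from the LPS mean was -0.43, -1.10 and -1.08, so that LPS_ABS 1 lay nearest to the LPS libraries.

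The transcription factors STAT2 (-0.29, edgeR adjusted p = 0.171) and IRF9 (-0.18, adjusted p = 0.456) were not called, nor after the correction (adjusted p = 0.0808 and 0.083). IRF7, an inducible interferon regulatory factor, was called only after the correction (-0.83, edgeR adjusted p = 0.0189, against -0.38 uncorrected). The RNA-activated kinase EIF2AK2, at 38.7% GC, did the opposite, with -0.78 uncorrected (edgeR adjusted p = 0.0133) and -0.16 corrected (adjusted p = 0.597). OAS3 and IFITM2 were at 0.02 and 0.09 uncorrected and at -0.23 and -0.22 corrected, and were not called.

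**Figure D2:**
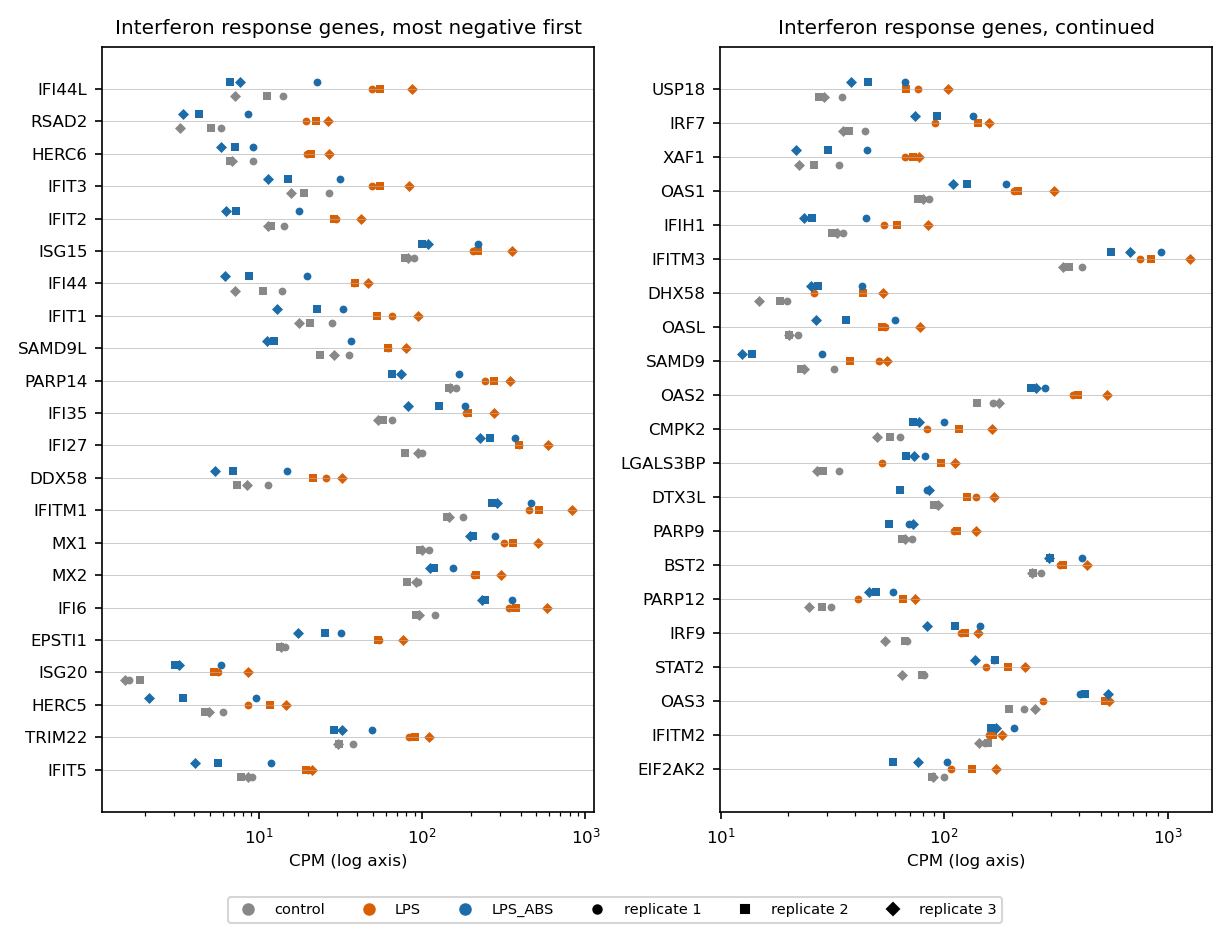
CPM (log axis) of 43 of the 44 interferon response genes in each library, ordered by GC-corrected log2 fold change from the most negative at the top left. Colours give the group (control, LPS, LPS_ABS) and symbols the replicate number. LPS libraries lie to the right of LPS_ABS libraries for most genes, and for the lowest genes of the right panel, such as OAS3 and IFITM2, the groups overlap.

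The interferon-stimulated response element is known as a promoter element of genes of this kind. Its core, taken as GAAA, any 2 bases and GAAA, was searched on both strands in RefSeq windows (GRCh38.p14) from 250 bases before to 50 bases after each gene start. It was present in 310 of 10616 tested genes with a window (2.92%), in 23 of 34 interferon list genes (67.6%), in 10 of the 17 of these that fell in all 3 fits (58.8%), in 24 of 283 genes that fell in all 3 fits (8.48%) and in 1 of 266 that rose (0.376%). In 2 windows a site shared bases with a site of the NF-kB type described below. The 250 bases before the start are shown for IFIT1 (chr10:89392373-89392622, plus strand), whose sites lie at -116 to -107 and -103 to -94 relative to the start, and for IFI44L (chr1:78620198-78620447, plus strand), with sites at -164 to -155 and -73 to -64. They were chosen as an effector with paired sites and as the member with the most negative corrected change, and capitals mark the element on either strand. A match is a run of letters and not a measured binding site.
IFIT1: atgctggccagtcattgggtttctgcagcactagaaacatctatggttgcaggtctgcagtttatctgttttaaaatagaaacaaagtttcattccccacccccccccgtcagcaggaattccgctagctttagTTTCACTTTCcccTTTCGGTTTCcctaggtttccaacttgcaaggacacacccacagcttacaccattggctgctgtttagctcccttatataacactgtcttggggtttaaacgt
IFI44L: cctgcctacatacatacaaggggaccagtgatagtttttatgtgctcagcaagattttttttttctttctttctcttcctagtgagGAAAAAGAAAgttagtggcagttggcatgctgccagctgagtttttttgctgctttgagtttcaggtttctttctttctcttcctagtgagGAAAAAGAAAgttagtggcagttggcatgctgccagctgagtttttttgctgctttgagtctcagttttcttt

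Some inflammatory cytokines and chemokines were higher. Of 40 on the list 39 were in the counts and 31 were tested. In the uncorrected fit 9 rose and 1 fell, in the corrected fit 8 rose, and 6 (19.4%, with 2.61% of all genes higher) rose in all 3 fits, namely IL1B, CXCL1, CXCL2, CXCL3, CCL20 and IL23A. The median log2 fold change of the list was 0.55 uncorrected and 0.30 corrected, with 23 positive and 8 negative changes after the correction. The median log2 difference from the LPS mean was 0.77, 0.57 and 0.06 in LPS_ABS 1, 2 and 3. The number called in all 3 fits was 1, 2 and 4 without LPS 1, LPS 2 and LPS 3, and IL1B was the member called in all 14 fits.

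IL1B (gene ID 3553) encodes interleukin 1 beta, which caspase 1 cleaves to its active form. It had 12.02, 12.1 and 13.8 CPM with LPS, 85.4, 50.7 and 70.6 CPM with LPS_ABS and 37.5, 37.6 and 50.8 CPM in controls. LPS_ABS lay above LPS with no overlap, and its lowest library was level with the highest control. The log2 fold change against LPS was 2.45 ± 0.20 (edgeR adjusted p = 3.13e-04), and 2.61 ± 0.19 with the GC correction (adjusted p = 5.14e-05).

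CXCL1, CXCL2 and CXCL3 encode neutrophil-attracting chemokines in a cluster of near-identical copies, so reads may be shared between them and their separate values are uncertain. CXCL1 had 1.89, 1.67 and 3.83 CPM with LPS and 7.50, 5.14 and 6.03 CPM with LPS_ABS (1.34 ± 0.30, edgeR adjusted p = 0.00825). CXCL2 and CXCL3 were below 2 CPM in every library, with 1.74 (edgeR adjusted p = 0.0169) and 2.14 (adjusted p = 0.0199). CCL20, which attracts lymphocytes and dendritic cells, had 2.23, 2.29 and 3.71 CPM with LPS and 7.53, 4.28 and 3.96 CPM with LPS_ABS (0.94, edgeR adjusted p = 0.0422). IL23A, the p19 subunit of interleukin 23, had 8.44, 5.64 and 6.56 CPM with LPS and 23.4, 18.3 and 9.22 CPM with LPS_ABS, with the controls at 2.53 to 3.38 CPM (1.30, edgeR adjusted p = 0.00792). In each of these genes the lowest LPS_ABS library lay above the highest LPS library, for CCL20 by 3.96 against 3.71 CPM.

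LPS_ABS 3 set several landmark cytokines apart from this pattern. TNF had 53.5, 47.2 and 103 CPM with LPS and 131, 82.1 and 29.7 CPM with LPS_ABS, so that LPS_ABS 3 was the lowest of the 6 libraries and LPS_ABS 1 the highest. TNF was not called (0.25, edgeR adjusted p = 0.653; -0.01 with the GC correction). CXCL8 had 62.1, 42.3 and 23.9 CPM with LPS_ABS against 28.5, 15.9 and 30.8 CPM with LPS, and was called with the correction (1.54, edgeR adjusted p = 0.00125) and without LPS_ABS 3 (1.06, adjusted p = 0.0143) but not in the uncorrected fit (0.77, adjusted p = 0.0607). CCL2, a monocyte chemokine, had the same order, with 50.7, 30.7 and 21.1 CPM in LPS_ABS 1, 2 and 3 against 16.2, 14.7 and 28.2 CPM. LPS_ABS 3 was the lowest of the 3 LPS_ABS libraries in 21 of 31 cytokine and chemokine genes (67.7%), against 38.5% of all genes tested.

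Of the NF-kB system itself, 27 subunit and feedback genes, 1 gene was called in all 3 fits (3.7%, against 5.25% of all genes). Without correction 12 rose and 4 fell, where 16.8% of all genes were higher and 18.8% lower. With the correction 1 rose, TRAF1, a signalling adaptor (0.99, edgeR adjusted p = 0.00847; 0.71 corrected, adjusted p = 0.0454). The number of members called higher in all 3 fits was 1, and 0, 0 and 3 without LPS 1, LPS 2 and LPS 3. NFKBIA, the inhibitor IkB alpha, was at 0.44 (edgeR adjusted p = 0.0898) and TNFAIP3, the deubiquitinase A20, at 0.29 (adjusted p = 0.215). Of 28 genes of the LPS receptor and Toll-like receptor signalling 5 rose and 8 fell without correction, beside the same 16.8% and 18.8%. With the correction 0 were called, against 9.26% of all genes.

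The same windows were searched on both strands for an NF-kB type motif, taken as GGG, any 2 bases and TTTCC. It was present in 227 of 10616 tested genes (2.14%), in 4 of the 6 cytokine genes that rose in all 3 fits (66.7%), in 5 of 22 genes of the whole cytokine list (22.7%), in 13 of 266 genes that rose (4.89%) and in 6 of 283 that fell (2.12%). The windows of CXCL1 (chr4:73869143-73869392, plus strand) and CXCL2 (chr4:74099196-74099445, minus strand) are shown because they hold the same 10 letters at nearly the same place, at -79 to -70 and -78 to -69 relative to the start, and because their likeness shows how close these copies are. Capitals mark the motif.
CXCL1: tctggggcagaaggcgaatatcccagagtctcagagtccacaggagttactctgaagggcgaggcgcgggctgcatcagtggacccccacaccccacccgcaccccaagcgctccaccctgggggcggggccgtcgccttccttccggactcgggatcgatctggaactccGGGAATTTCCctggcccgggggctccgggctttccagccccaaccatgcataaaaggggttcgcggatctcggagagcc
CXCL2: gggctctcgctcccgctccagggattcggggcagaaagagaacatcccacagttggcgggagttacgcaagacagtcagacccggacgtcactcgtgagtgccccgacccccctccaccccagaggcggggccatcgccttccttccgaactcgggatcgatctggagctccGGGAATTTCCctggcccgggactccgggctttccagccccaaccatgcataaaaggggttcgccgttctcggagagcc

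Part of the ERK target genes rose. ERK signalling switches on immediate early genes such as EGR1 and FOS and, with them, inhibitors of its own pathway. Of 39 such genes 17 rose without correction, 6 with it and 5 (12.8%) in all 3 fits, and 0 were called lower in any of these. EGR1 (gene ID 1958), an early transcription factor, had 9.03, 8.44 and 7.95 CPM with LPS, 27.9, 41.6 and 29.3 CPM with LPS_ABS and 8.84, 9.92 and 13.8 CPM in controls. LPS_ABS stood above both other groups with no overlap (1.96 ± 0.21 against LPS, edgeR adjusted p = 0.00221; 1.65 ± 0.20 corrected, adjusted p = 0.00184).

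The feedback inhibitors SPRY4 and DUSP6 rose too. SPRY4, a Sprouty protein that restrains receptor tyrosine kinase signalling, had 0.874, 0.263 and 0.540 CPM with LPS and 2.80, 1.97 and 4.92 CPM with LPS_ABS (2.52 ± 0.47, edgeR adjusted p = 0.00515). DUSP6, a phosphatase of ERK, had 28.8, 25.9 and 25.8 CPM with LPS and 39.8, 40.2 and 41.8 CPM with LPS_ABS (0.59 ± 0.12, edgeR adjusted p = 0.00627). FOS (0.77) and ZFP36L1 (1.02), which promotes decay of short-lived mRNAs, were the other 2. EGR1 and DUSP6 were called in all 14 fits, and without LPS 3 the number of list members called higher in all 3 fits was 2. HBEGF, a ligand of the EGF receptor outside this list, rose in all 14 fits as well, from 15.5, 17.7 and 18.1 CPM to 32.8, 33.9 and 31.8 CPM (0.94 ± 0.14, edgeR adjusted p = 0.00313).

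The EGR1 promoter is known for serum response elements, whose core is the CArG box. On either strand a CArG box was present in 113 of 10616 windows (1.06%), in 3 of 266 genes that rose in all 3 fits (1.13%) and in 2 of 283 that fell (0.707%). In 2 windows one shared bases with the NF-kB type motif. The EGR1 window (chr5:138465229-138465478, plus strand) holds 2 of them, at -105 to -96 and -83 to -74 relative to the start, shown in capitals.
EGR1: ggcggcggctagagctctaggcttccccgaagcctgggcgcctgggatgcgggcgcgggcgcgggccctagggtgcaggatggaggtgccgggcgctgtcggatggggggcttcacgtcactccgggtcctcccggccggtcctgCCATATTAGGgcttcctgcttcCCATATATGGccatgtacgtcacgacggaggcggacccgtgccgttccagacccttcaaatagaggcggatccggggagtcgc

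The largest changes by rank are given next. Named are the 15 largest rises and falls among genes called in all 3 fits, with libraries that did not overlap and a mean of at least 100 counts in the higher group, ranked by the smaller of the uncorrected and corrected changes. NPTX1 (gene ID 4884), a secreted pentraxin, had 1.31, 1.77 and 0.952 CPM with LPS, 7.70, 10.2 and 19.0 CPM with LPS_ABS and 7.84 to 14.5 CPM in controls (3.19 ± 0.37, edgeR adjusted p = 0.00221; 2.83 corrected). THBS1, thrombospondin 1, an adhesive glycoprotein, had 1.56, 2.58 and 1.65 CPM with LPS and 4.89, 6.14 and 12.2 CPM with LPS_ABS (2.005 ± 0.35, edgeR adjusted p = 0.00468). In both genes LPS_ABS 3 was the highest library, and without it the log2 fold change was 2.73 and 1.51.

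Other rises of the ranking included GPR84, TNFRSF9 and ADGRE2. GPR84, a receptor for medium-chain fatty acids, had 6.02, 4.04 and 7.46 CPM with LPS and 26.3, 13.3 and 15.7 CPM with LPS_ABS (1.66, edgeR adjusted p = 0.00391). TNFRSF9, the costimulatory receptor 4-1BB, rose by 1.502 and ADGRE2, an adhesion receptor of myeloid cells, by 1.54 on the log2 scale. FPR2, a formyl peptide receptor below the count minimum for the ranking, rose in all 14 fits from 0.552, 0.693 and 0.746 CPM to 1.75, 2.29 and 3.43 CPM, and was named after its values were seen. Besides IL1B, EGR1 and SPRY4, described above, the remaining rises were PRRT4, FCAMR, SHROOM3, ADAMTS15, LDLRAD3, WNK2 and LOC107987158, for which no GC value was available, and their uncorrected changes lay between 1.48 and 2.28.

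Falls of the ranking were mostly of genes at a few CPM. NEB (gene ID 4703), the giant sarcomere protein nebulin, had 3.79, 4.16 and 2.73 CPM with LPS, 0.622, 0.512 and 0.160 CPM with LPS_ABS and 0.240 to 0.295 CPM in controls (-3.04 ± 0.43, edgeR adjusted p = 0.00309; -2.84 corrected). DNAH10, an axonemal dynein heavy chain, went from 4.32, 6.60 and 4.22 CPM to 1.4995, 1.51 and 0.824 CPM (-1.98, edgeR adjusted p = 0.00437). KCNE1, a potassium channel subunit, had 13.9, 18.5 and 24.7 CPM with LPS and 6.76, 5.41 and 3.83 CPM with LPS_ABS (-1.83, edgeR adjusted p = 0.00291), but KCNE1B is a near-identical copy whose reads may be shared. GOLGA8K (-2.18) also belongs to a family of near-identical copies and is uncertain for the same reason. The others were LRRC2, TMCC3, PAPPA2, COL24A1, IFI44L, TMPRSS9, GPA33, ABLIM3, RSAD2 and VWA5A, between -2.85 and -1.66 uncorrected.

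**Figure D3:**
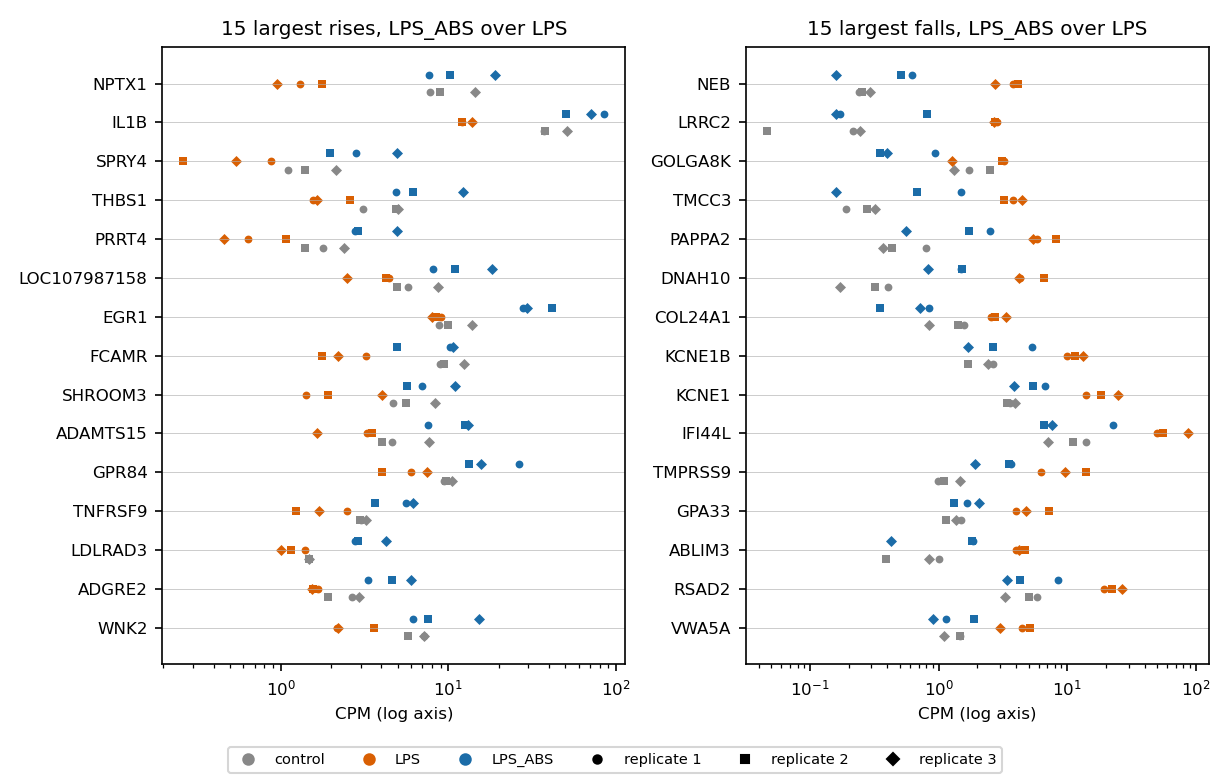
CPM (log axis) of the 15 largest rises (left) and the 15 largest falls (right) in each library, with the group by colour and the replicate number by symbol. These genes were selected so that LPS and LPS_ABS do not overlap. In the left panel the blue LPS_ABS symbols lie to the right of the orange LPS symbols, at higher CPM. In the right panel they lie to the left of them, at lower CPM. The grey control symbols are shown for each gene as well.

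Genes at higher counts also fell in all 14 fits. TCEA1 (gene ID 6917), transcription elongation factor S-II, had 406, 348 and 364 CPM with LPS, 132, 95.4 and 43.0 CPM with LPS_ABS and 92.0 to 111 CPM in controls (-2.05 ± 0.29, edgeR adjusted p = 0.00309; -1.51 ± 0.23 corrected, adjusted p = 0.00505). ASS1, argininosuccinate synthase of the arginine cycle, had 1431, 1519 and 1865 CPM with LPS and 1124, 955 and 539 CPM with LPS_ABS, with controls at 346 to 404 CPM (-0.88, edgeR adjusted p = 0.0104). IL31RA, a cytokine receptor, had 106, 107 and 93.0 CPM with LPS and 42.5, 47.6 and 31.7 CPM with LPS_ABS, with controls at 28.8 to 30.3 CPM (-1.33, edgeR adjusted p = 0.00221). HNRNPH1, a splicing factor, had 312, 313 and 334 CPM with LPS, 173, 168 and 197 CPM with LPS_ABS and 282 to 315 CPM in controls (-0.83, edgeR adjusted p = 0.00291). TCEA1, ASS1 and IL31RA were lower with LPS_ABS than with LPS. In ASS1 and IL31RA every LPS_ABS library still lay above every control, while the TCEA1 libraries lay above, within and below the control range. HNRNPH1 with LPS_ABS was below both other groups. These 4 were named after their values were seen.

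Glycolysis and glucose uptake genes rose in part. Of 25 tested 15 rose and 2 fell without correction, 5 rose and 1 fell with it, and the same numbers were called in all 3 fits. HK2, hexokinase 2, which traps glucose, had 7.22, 8.37 and 7.95 CPM with LPS, 15.5, 14.6 and 23.7 CPM with LPS_ABS and 21.7 to 29.2 CPM in controls (1.19 ± 0.20, edgeR adjusted p = 0.00438). SLC2A1, the glucose transporter GLUT1, had 195, 247 and 218 CPM with LPS and 413, 373 and 421 CPM with LPS_ABS (0.87, edgeR adjusted p = 0.00291). PGK1 (0.48), LDHA (0.54) and GPI (0.64) were the others that rose.

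The lactate dehydrogenase subunits moved in opposite directions. LDHA, which favours lactate formation, had 621, 499 and 458 CPM with LPS and 687, 757 and 848 CPM with LPS_ABS (0.54 ± 0.13, edgeR adjusted p = 0.00952; 0.84 corrected, adjusted p = 0.00302). LDHB had 779, 707 and 685 CPM with LPS, 409, 384 and 375 CPM with LPS_ABS and 584 to 713 CPM in controls (-0.89 ± 0.11, edgeR adjusted p = 0.00241; -0.79 corrected). For LDHB all LPS_ABS libraries lay below all 6 others. HK2, LDHA, PGK1, SLC2A1 and LDHB were called in all 14 fits. The number of list members called in all 3 fits was 4 higher and 1 lower without LPS 1 and 3 and 1 without LPS 2 or LPS 3. Of 19 other genes of the hypoxia response 1 changed in all 3 fits (5.26%, against 5.25% of all genes). This was the histone demethylase KDM3A, which fell (-0.94). Without LPS 1, LPS 2 or LPS 3, 0 members of this list were called in all 3 fits.

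DNA replication genes rose more often than they fell. Of 45 tested 22 rose and 1 fell without correction, 12 rose with it and 9 (20%) rose in all 3 fits. These were the replicative helicase subunits MCM2, MCM4 and MCM5, the helicase partners CDC45 and GINS4, the polymerase POLE, the ligase LIG1, the thymidylate synthase TYMS and the S phase transcription factor E2F1. GINS4 had 40.6, 51.0 and 48.0 CPM with LPS and 76.9, 85.5 and 91.4 CPM with LPS_ABS (0.86 ± 0.13 uncorrected and 0.86 ± 0.11 corrected, edgeR adjusted p = 0.00335 and 0.00259). E2F1 had 62.7, 84.0 and 80.8 CPM with LPS and 162, 136 and 145 CPM with LPS_ABS (0.96, edgeR adjusted p = 0.00309). These 2 were called in all 14 fits, while without LPS 3 the number called in all 3 fits was 2 and without LPS 1 or LPS 2 it was 5.

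Genes of mitosis were called in both directions. Of 44 tested 7 rose and 16 fell without correction, where 16.8% of all genes were higher and 18.8% lower. With the correction 3 rose and 1 fell, and 28 had a positive and 16 a negative log2 fold change. In all 3 fits 6.82% of the list was called, near the 5.25% of all genes. ESPL1, the separase, and SPC24 of the kinetochore rose in all 3 fits, by 0.97 and 0.71, and TOP2A, the mitotic topoisomerase, fell by 1.19 on the log2 scale, with 0 members of the list called in all 3 fits without LPS 1 or LPS 3. Of 46 ribosome biogenesis genes 15 rose and 7 fell without correction and 6 rose in all 3 fits, URB1, POLR1A, MYBBP1A, RRP12, NAT10 and BOP1. In URB1 LPS_ABS 3 stood apart. URB1 had 27.0, 34.9 and 81.1 CPM with LPS_ABS against 13.5, 19.6 and 14.8 CPM with LPS, and LPS_ABS 3 was the highest of the 3 in 30 of the 46 genes (65.2%, against 35.4% of all genes). None of the 6 was called in all 3 fits without LPS 1 or without LPS 3, where 0 members of the list were called.

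Some integrins and proteases and the urokinase receptor rose. Of 22 leukocyte integrin and adhesion genes 8 rose and 4 fell without correction, 5 and 2 with it, and 4 rose in all 3 fits, namely ITGAM, ITGB5, ITGA5 and THBS1 (2 higher and 1 lower without LPS 1). ITGAM, the alpha chain of complement receptor 3, had 9.91, 13.4 and 11.5 CPM with LPS and 22.3, 26.8 and 28.7 CPM with LPS_ABS (1.16 ± 0.17, edgeR adjusted p = 0.00314; 0.90 corrected, adjusted p = 0.00546). Among 20 proteases of the matrix and their inhibitors, 7 were called higher and 1 lower without correction and 4 rose in all 3 fits. MMP9, a gelatinase, had 11.98, 18.5 and 14.4 CPM with LPS, 54.1, 34.3 and 58.9 CPM with LPS_ABS and 16.9 to 23.4 CPM in controls (1.72 ± 0.23, edgeR adjusted p = 0.00291; 1.28 corrected).

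PLAUR, the urokinase receptor, had 40.02, 43.0 and 47.1 CPM with LPS and 107, 83.8 and 81.6 CPM with LPS_ABS (1.07, edgeR adjusted p = 0.00259), and ADAMTS1 (1.32) and ADAMTS15 (1.98), secreted metalloproteases, rose as well. MMP9, PLAUR, ITGAM and THBS1 were called in all 14 fits. VIM, the intermediate filament protein vimentin, named after its values were seen, had 84.1, 77.7 and 51.5 CPM with LPS and 165, 177 and 177 CPM with LPS_ABS (1.28, edgeR adjusted p = 0.00241).

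The receptors and ligands of apoptotic cell uptake split. Of 35 genes tested 9 rose and 6 fell without correction, where 16.8% of all genes were higher and 18.8% lower. With the correction 6 rose and 2 fell. In all 3 fits 5 rose and 2 fell, together 20% of the list against 5.25% of all genes. Among the TAM kinases AXL fell, from 111, 231 and 256 CPM with LPS to 102, 104 and 82.7 CPM, with controls at 55.7 to 65.5 CPM (-1.05 ± 0.24, edgeR adjusted p = 0.00872; -1.29 ± 0.22 corrected, adjusted p = 0.00739). LPS 1 stood apart from the other LPS libraries at 111 CPM, yet AXL was called in all 14 fits. TYRO3 rose from 14.3, 20.3 and 18.3 CPM to 33.0, 25.0 and 29.8 CPM (0.73, edgeR adjusted p = 0.00803). MERTK was at 1.54, 1.63 and 0.746 CPM with LPS and 2.18, 2.67 and 3.27 CPM with LPS_ABS, and was called without correction (1.05, edgeR adjusted p = 0.0409) but not with it (1.04, adjusted p = 0.0763) or without LPS_ABS 3 (adjusted p = 0.11).

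Both TAM ligands were called in all 3 fits. GAS6, which rose, had 41.0, 60.6 and 57.7 CPM with LPS and 111, 87.3 and 93.4 CPM with LPS_ABS (0.87, edgeR adjusted p = 0.00482; 0.43 corrected, adjusted p = 0.0308). PROS1, protein S, which fell, had 26.0, 24.8 and 25.6 CPM with LPS and 14.7, 11.3 and 10.2 CPM with LPS_ABS (-1.08, edgeR adjusted p = 0.00309; -0.53 corrected, adjusted p = 0.0163). CALR, calreticulin, the scavenger receptor SCARB1 and the integrin chain ITGB5 were the other 3 that rose. Without LPS 3 none of the 7 was called in all 3 fits (0 higher and 0 lower on this list), and without LPS 1 the numbers were 1 and 2. The scavenger receptor CD36 was called lower without correction (-0.72, edgeR adjusted p = 0.0197) and not with it (-0.17, adjusted p = 0.527).

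Genes commonly read as anti-inflammatory or of M2-type macrophages had 1 member called in all 3 fits. Of 31 tested 4 rose and 1 fell without correction, 2 and 1 with it, and 1 rose in all 3 fits (3.23%, against 5.25% of all genes), the lipoxygenase ALOX15. ALOX15 had 0, 0 and 0.0257 CPM with LPS and 0.707, 0.458 and 0.239 CPM with LPS_ABS, and no fold is given at such counts. CD163, a haemoglobin scavenger receptor, was at most 2.18 CPM in any library and was not called (1.19, edgeR adjusted p = 0.141). TGFB1 was called without correction (0.66, edgeR adjusted p = 0.00722) and not with it (0.22, adjusted p = 0.182), while SMAD7, an inhibitor of its pathway, rose in all 3 fits (1.05; 0.67 corrected). Of 19 LXR target and cholesterol efflux genes 0 were called in all 3 fits (3 rose and 1 fell without correction), and the exporter ABCA1 was at -0.10 (edgeR adjusted p = 0.672). Of 24 cholesterol synthesis genes 10 rose and 4 fell without correction and 3 rose in all 3 fits, ACAT2 (0.48), DHCR7 (0.86) and LSS (0.92), with 0 of them so called without LPS 1 or LPS 3.

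**Figure D4:**
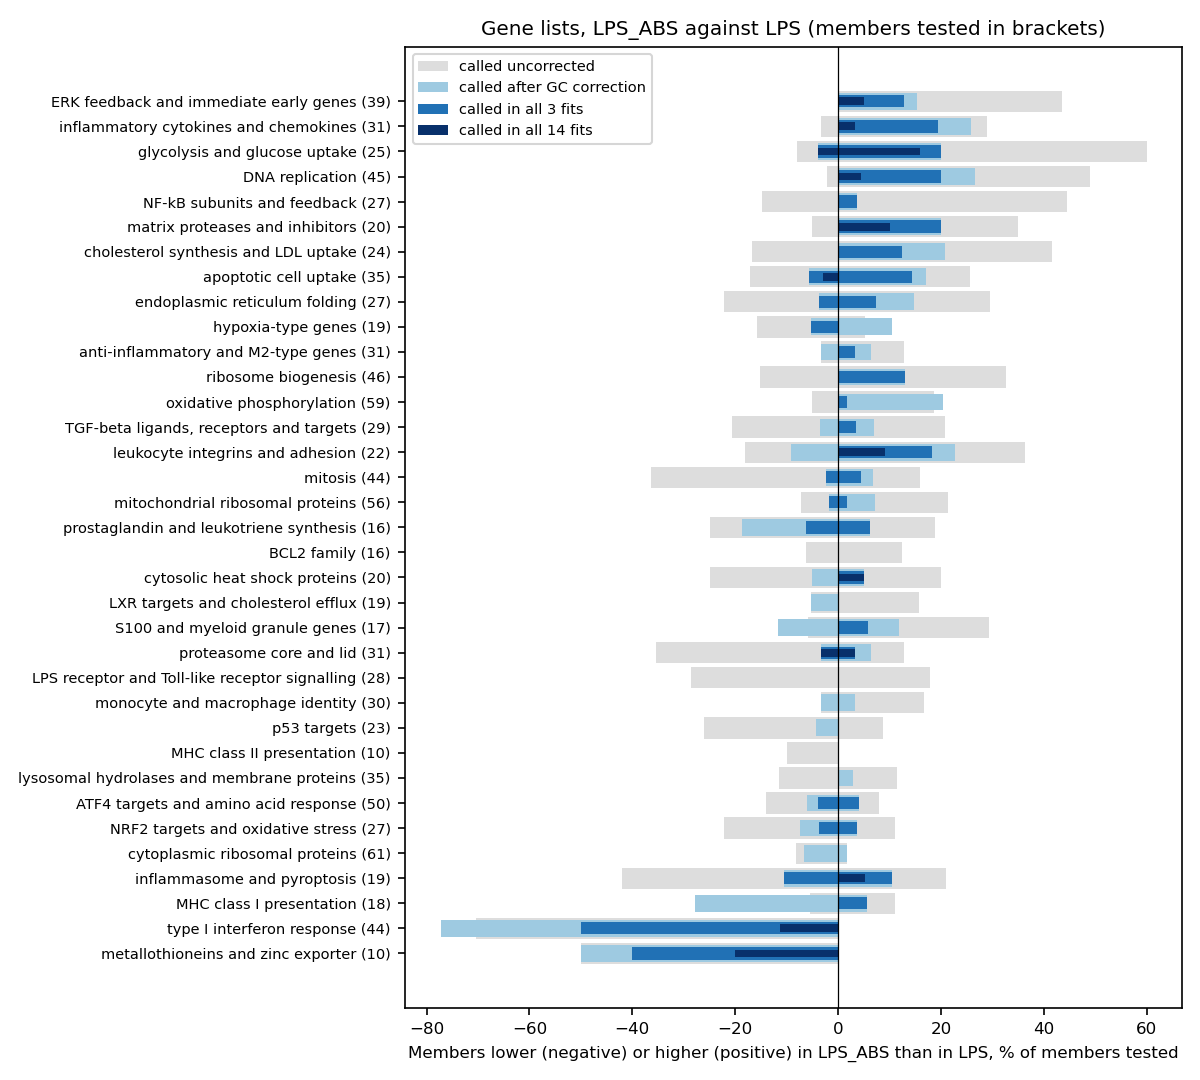
Share of each gene list's tested members (number in brackets) called lower (left of 0) or higher (right of 0) in LPS_ABS than in LPS, in percent, for the uncorrected fit, the GC-corrected fit, all 3 fits and all 14 fits. Lists are ordered by median GC-corrected log2 fold change. The bars of the interferon and metallothionein lists lie to the left, and the grey uncorrected bars extend well past the blue bars for most lists.

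Metallothioneins, small proteins that bind zinc and copper, were lower. They are near-identical copies, so reads may be shared and the values of single genes are uncertain. Of 10 genes of this list, which also holds the zinc transporters SLC30A1, SLC39A8 and SLC39A14 and the factor MTF1, 5 fell without correction, 5 with it and 4 (MT2A, MT1G, MT1X and MT1E) in all 3 fits. MT2A had 238, 284 and 323 CPM with LPS, 208, 151 and 98.7 CPM with LPS_ABS and 108 to 115 CPM in controls (-0.88 ± 0.21, edgeR adjusted p = 0.0105; -1.34 ± 0.19 corrected, adjusted p = 0.00418). MT2A and MT1G were called in all 14 fits, but 0 members of the list were called in all 3 fits without LPS 3.

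AKR1C1, AKR1C2 and AKR1C3, also near-identical copies with uncertain single values, rose. AKR1C2, which reduces steroids and carbonyls, had 112, 86.7 and 101 CPM with LPS, 246, 234 and 167 CPM with LPS_ABS and 213 to 237 CPM in controls (1.11 ± 0.16, edgeR adjusted p = 0.00309; 1.69 ± 0.13 corrected, adjusted p = 5.14e-05). AKR1C3 rose by 0.9996 on the log2 scale and AKR1C1 by 0.67. AKR1C1 is on the list of 27 NRF2 target genes, of which 1 rose and 1 fell in all 3 fits (7.41%, against 5.25% of all genes). After the correction 7 of the 27 changes were positive and 20 negative. On this list GCLC, of glutathione synthesis, fell (-0.78) and HMOX1, haem oxygenase 1, was at -0.04 (edgeR adjusted p = 0.9). With the correction and each library left out, GCLC was called in 1 of 6 fits. S100A9, a calcium-binding protein of myeloid cells, rose from 180.01, 125 and 93.0 CPM to 373, 300.15 and 288 CPM (1.27, edgeR adjusted p = 0.00376; 0.93 corrected). With the correction and each library left out, S100A9 was called in 3 of 6 fits. Of 17 S100 and myeloid granule genes it was the 1 called in all 3 fits (5.88%, against 5.25% of all genes). After the correction 2 of the 17 were called higher and 2 lower.

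The cytosolic heat shock and proteasome lists had 5% and 6.45% of their members called in all 3 fits, near the 5.25% of all genes. HSP90AB1, a cytosolic chaperone, had 1324, 1193 and 1201 CPM with LPS and 1579, 2054 and 2714 CPM with LPS_ABS (0.77 ± 0.16, edgeR adjusted p = 0.00652), and it was the member of the 20 heat shock genes called in all 3 fits. Its cochaperone FKBP4, named after its values were seen, had 46.2, 39.0 and 41.8 CPM with LPS and 97.0, 69.8 and 117 CPM with LPS_ABS (1.16, edgeR adjusted p = 0.00314). CCT8, a subunit of the TRiC chaperonin, also named so, had 450, 415 and 403 CPM with LPS and 241, 177 and 149.99 CPM with LPS_ABS (-1.16, edgeR adjusted p = 0.00313). Of 31 proteasome genes PSMB2 rose (0.54) and PSMC1 fell (-0.68) in all 14 fits, and the others were not called in all 3 fits.

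Inflammasome genes divided between rises and falls. Of 19 tested, 4 rose and 8 fell without correction, where 16.8% of all genes were higher and 18.8% lower. In all 3 fits 21.1% of the list was called, against 5.25% of all genes. IL1B and MEFV, which encodes pyrin, rose, and P2RX7, the ATP-gated channel, and CASP4, a caspase that binds LPS, fell. With the GC correction and each library left out, IL1B was called in 6 of 6 fits, P2RX7 in 5, and MEFV and CASP4 in 1 each. Without LPS 1 or LPS 2 the list had 1 higher and 1 lower in all 3 fits, and without LPS 3 it had 1 and 0. P2RX7 had 42.6, 38.3 and 52.9 CPM with LPS, 25.5, 24.5 and 19.0 CPM with LPS_ABS and 8.51 to 10.5 CPM in controls (-0.96 ± 0.17, edgeR adjusted p = 0.00459; -0.93 corrected). NLRC5, a transactivator of MHC class I genes, rose in all 3 fits (0.96; 0.60 corrected). With the GC correction and each library left out, NLRC5 was called in 2 of 6 fits. The MHC class I list it belongs to had 5 of 18 members lower after the GC correction, where 4.23% of all genes were lower. These were HLA-B, HLA-C, HLA-F, PSMB9 and PSME2 (-0.59 to -0.37), of which 0 were called in all 3 fits. The corrected count of 5 was 0 without LPS 1, LPS 3 or LPS_ABS 3. It was 1 without LPS_ABS 2, 2 without LPS 2 and 7 without LPS_ABS 1.

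TXNIP, which restrains glucose uptake, was a landmark gene that kept no call after the correction. It had 728, 695 and 666 CPM with LPS, 348, 470.1 and 219.7 CPM with LPS_ABS and 179 to 193 CPM in controls, and its log2 fold change was -1.01 (edgeR adjusted p = 0.0062) and -0.69 corrected (adjusted p = 0.0606). Members of further lists were also called in all 3 fits. PDIA4 (0.73) and CALR (0.85) rose and SEL1L (-1.13) fell on the list of 27 endoplasmic reticulum folding genes (11.1%, against 5.25% of all genes). LTC4S (-0.73), the leukotriene C4 synthase, fell and ALOX15, described above, rose among 16 prostaglandin and leukotriene genes (12.5%). MRPS16 (0.35) rose and MRPS22 (-0.51) fell among 56 mitochondrial ribosomal proteins (3.57%). The endoplasmic reticulum folding list had 0 members called in all 3 fits without LPS 3. On the lists of p53 targets (23 genes), BCL2 family (16), lysosome (35), MHC class II (10) and monocyte and macrophage identity (30), 0 genes were called in all 3 fits, while without correction edgeR called 8, 3, 8, 1 and 6. Among all genes tested 5.25% were called in all 3 fits and 35.6% without correction.

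ATF4 target and amino acid response genes set LPS_ABS 3 apart from LPS_ABS 1 and 2. Of 50 tested 4 rose and 7 fell with all libraries, whereas without LPS_ABS 3 the uncorrected fit had 19 higher and 8 lower. LPS_ABS 3 was the lowest of the 3 LPS_ABS libraries in 47 of the 50 genes (94.0%, against 38.5% of all genes). The median log2 difference of the list from the LPS mean was 0.31, 0.33 and -0.84 in LPS_ABS 1, 2 and 3. ASNS, asparagine synthetase, had 405, 326 and 348 CPM with LPS, 283, 349 and 83.6 CPM with LPS_ABS and 28.0 to 44.97 CPM in controls. TRIB3, a pseudokinase induced by ATF4, had 424, 617 and 553 CPM with LPS and 768, 712 and 227 CPM with LPS_ABS. In both genes LPS_ABS 3 lay between the controls and all LPS libraries, and neither was called (edgeR adjusted p = 0.222 and 0.837).

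ATF4 itself had 1636, 1539.5 and 1639 CPM with LPS and 1549, 1496 and 1003 CPM with LPS_ABS (-0.25, edgeR adjusted p = 0.185; -0.61 corrected, adjusted p = 0.0306). DDIT3, the stress transcription factor CHOP, had 62.9, 74.8 and 28.1 CPM with LPS_ABS against 71.2 to 93.3 CPM with LPS (-0.55, edgeR adjusted p = 0.127). Called in all 3 fits were ALDH18A1, of proline synthesis (0.60), and the arginine transporter SLC7A1 (0.78), which rose, and ALDH1L2, of mitochondrial folate metabolism (-1.32), and the chaperone CLGN (-1.61), which fell. Without LPS 3, 0 members of the list were called in all 3 fits, without LPS 1 it was 1 higher and 0 lower, and without LPS 2 it was 2 and 1. SLC7A1 had 245, 352 and 316 CPM with LPS and 469, 586 and 510.3 CPM with LPS_ABS, with LPS_ABS 3 inside the range of the other LPS_ABS libraries.

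LPS_ABS 3 was also the lowest LPS_ABS library in most cytoplasmic ribosomal protein genes (54 of 61, 88.5%) and oxidative phosphorylation genes (46 of 59, 78.0%). The share was 61.3% to 77.8% on the lists of MHC class I, p53 targets, S100 genes, NRF2 targets, metallothioneins (70.0%), inflammasome, cytokines, interferon response (63.6%) and proteasome. Of the 61 ribosomal protein genes 1 rose and 5 fell without correction and 0 were called in all 3 fits. Of the 59 oxidative phosphorylation genes 12 rose with the GC correction, of which 1, UQCR10, was called in all 3 fits (11 rose and 3 fell without correction). LPS_ABS 3 was the highest of the LPS_ABS libraries in 25 of 45 DNA replication genes (55.6%) and in 14 of 20 cytosolic heat shock genes (70.0%).

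**Figure D5:**
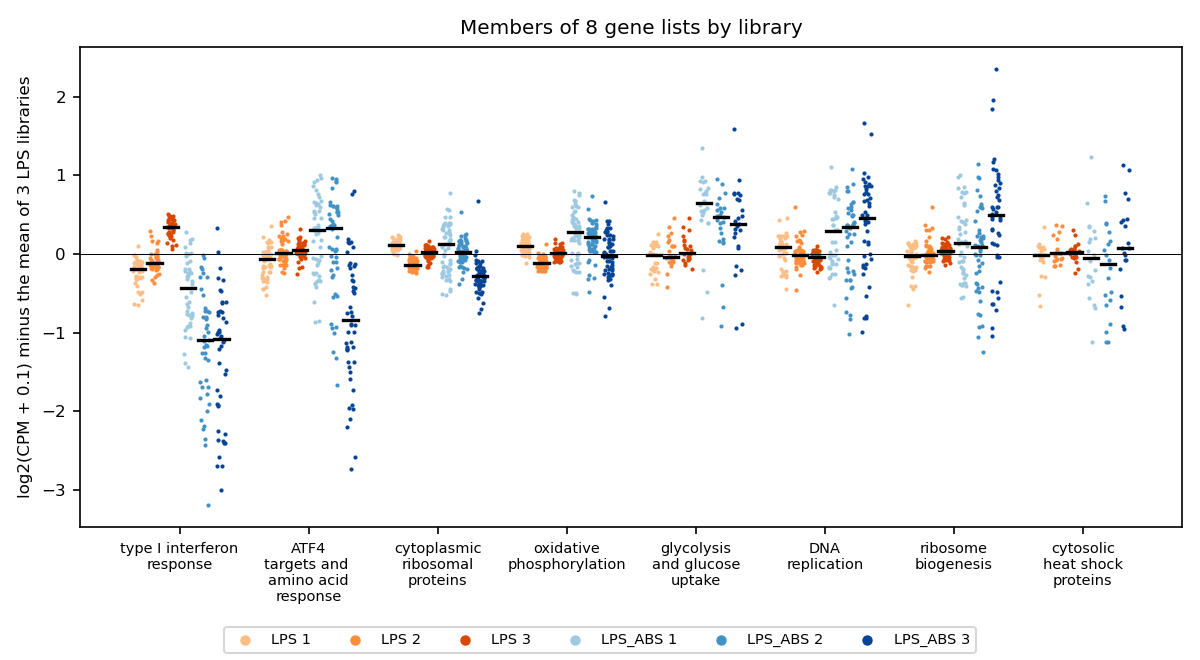
Log2(CPM + 0.1) of each member of 8 gene lists in the LPS (orange) and LPS_ABS (blue) libraries, minus the mean over the 3 LPS libraries. Each point is a gene and each black bar the median of the list in that library. LPS_ABS 3 has a median of -0.84 for ATF4 targets where LPS_ABS 1 and 2 have 0.31 and 0.33, and the interferon medians are negative in each LPS_ABS library.

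Among the 681 genes called in all 3 fits LPS_ABS 3 was the LPS_ABS library farthest from the LPS mean in 235 of 338 that rose and 189 of 343 that fell. The median log2 difference of the genes that rose was 0.89, 0.84 and 1.11 in LPS_ABS 1, 2 and 3, and that of the genes that fell was -0.70, -1.12 and -1.23.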

How the data were processed

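RNA of 9 libraries of PMA-treated THP-1 cells was sequenced, 3 each with PBS, LPS, and LPS with ABS. The authors deposited raw read counts per gene and a table of FPKM values for 16222 genes, and only the counts were tested. The deposited FPKM values equalled the count over 1 length per gene and the library total, and served to recover that length. The labels' protocols name 2 library kits, one of them stranded, and do not tell them apart by library. Tools listed per the submitters' processing notes are DESeq2, HTSeq, HISAT2, fastp and R 3.2.0. Build, annotation and strand setting are not given in the sources used here, and overlapping and antisense genes cannot be told apart with certainty.

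Counts were fitted with edgeR 4.0.16 in R 4.3.3 (filterByExpr, TMM, quasi-likelihood F test, 3 group means over the 9 libraries, 6 residual degrees of freedom). The spread beyond counting error was 18.4% as a common coefficient of variation. In the GC correction a lowess trend (span 0.3) of each library's log CPM (prior count 1) on transcript GC content (longest coding transcript in GENCODE), found for 16115 genes (99.34%), entered as an offset. No 2 libraries of a group were duplicates (lowest chi-square per degree of freedom 7.22). CPM are levels after TMM, and log2 fold changes are LPS_ABS minus LPS with their standard error (SE). Scripts were tested on simulated data.

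The genes named are the 15 largest rises and falls (rule in the text), up to 5 members of each list called in all 3 fits by smallest corrected adjusted p, 30 landmark genes, and the 3 most GC-rich and 3 most GC-poor genes with a mean of at least 1000 counts whose call ended with the correction. The comparison, the lists and this rule were chosen with earlier results of these data known, so they are no independent support. Other genes named were chosen after their values were seen. Values of 1 gene of the interferon list are not reported here, and it stays in the counts. Alternatives were DESeq2 size factors, total counts, no filter, 6 libraries, DESeq2 1.42.0, limma-voom (limma 3.58.1), each library left out, a replicate block, a span of 0.7 and a length trend.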

Additional observations from a re-analysis of the deposited data

How the results depend on the processing

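Of the 4621 genes called without correction, the count stayed within 1.5 times with DESeq2 size factors (4760), total counts (4569), no filter (4467), the DESeq2 Wald test (5261) and limma-voom (4928). With total counts 32.6% of the called genes were higher, against 47.2% with TMM, and the median log2 fold change of all genes was -0.09 against 0.02. The count was 3042 with only the 6 libraries compared and 1201 with the GC correction, and with each library left out it lay between 2360 (without LPS 1) and 4918 (without LPS_ABS 1), with 2720 without LPS 3. The corrected count of 1201 was 333 with 6 libraries and lay between 187 (without LPS 3) and 2752 (without LPS_ABS 1), with 324 without LPS 1, 657 without LPS 2, 580 without LPS_ABS 2 and 729 without LPS_ABS 3, over the genes passing that fit's own filter. The 681 genes called in all 3 fits were 65 at an adjusted p under 0.01, and between 117 (without LPS 3) and 413 (without LPS 2). Among the list genes, each counted once and without the landmark and cell marker lists, 387 were called without correction. The count was 174 with the GC correction and 102 in all 3 fits. The difference in GC slope of 0.453 lay between 0.376 and 0.516 with each library left out. The cause of these changes was not tested.

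With the replicate number as a replicate block the counts were 4838 without and 1412 with the GC correction, and 766 in all 3 fits. Same-numbered LPS and LPS_ABS libraries correlated at 0.118, 0.027 and -0.001 in their deviations from the group means, and 1 of the 3 LPS libraries correlated best with its own number, so the numbers were not taken to pair the samples.

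Of the 125 named genes 101 were called in all 3 fits. Of these 24 missed the threshold under at least 1 of 16 alternatives, among them CCL20, CXCL2, AKR1C1, MT1X, POLR1A, MRPS16 and UQCR10. Among the 16, libraries other than LPS_ABS 3 were left out only without the GC correction. With the correction and each of the 6 libraries left out in turn, further named genes lost calls. IL23A was then called in 1 of 6 fits, TRAF1 and ACAT2 in 2 each and S100A9 in 3. Under the 16 alternatives signs turned in 7 genes. TNF (0.25) was -0.0115 with the GC correction, -0.10 with block and correction and between -0.28 (without LPS_ABS 1) and 0.68 (without LPS 3) with each library left out. TRIB3 (0.10) was -0.0076 with total counts, -0.074 with limma-voom, -0.045 with the block, -0.32 corrected, -0.46 corrected with the block, -0.04 without LPS 1, -0.18 without LPS_ABS 1, -0.09 without LPS_ABS 2 and at most 0.48 (without LPS_ABS 3) with each library left out. ABCA1 (-0.10) was 0.0795 corrected, 0.0679 with block and correction, 0.14 corrected without LPS_ABS 3, and between -0.27 (without LPS_ABS 1) and 0.0331 (without LPS_ABS 2) with each library left out. HMOX1 (-0.04) was 0.21 without LPS 3, 0.0052 without LPS_ABS 2, 0.10 without LPS_ABS 3 and -0.25 without LPS_ABS 1. MRPL41 was -0.0186 corrected and -0.006 with the block too, and corrected without LPS_ABS 3 CD36 was 0.0101 and GMFB 0.0174. With about equal depth in the 6 libraries, depth limits mainly the genes at a few CPM or below.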
